A study of Mus musculus with 8 samples.

Results

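The red cell membrane and skeleton genes described here are Slc4a1, Sptb, Ank1, Epb41, Epb42, Kel, Ermap and Rhd, 8 of the 13305 genes in the deposited table of raw counts. They were chosen by name among the genes of this table, with earlier results of these data known. None could therefore be missing, and all 8 are described. No gene of the table has fewer than 106 counts over all mice. RNA-seq was performed by the authors on whole bone marrow (BM) of 8 AML mice of the C57BL/6N strain, 1 library per mouse, to ask how the Gab2 genotype changes the leukemic marrow. Every mouse carried the Mx1-Cre transgene, 1 deleted Dnmt3a allele (Dnmt3a+/-) and the internal tandem duplication on both Flt3 alleles (Flt3ITD/ITD). The 3 AML WT mice were Gab2+/+, the 2 AML HET mice Gab2+/- and the 3 AML KO mice Gab2-/-, and the controls therefore carried the leukemia alleles too. Mx1-Cre is interferon-inducible and not restricted to blood cells, and the study's methods describe spontaneous Cre activity in AML mice without induction. No healthy mouse is among these samples, the age of the mice used for RNA-seq is not given in the sources used here, and neither is whether red cells were lysed before RNA was extracted. The libraries held 28009258 to 39266815 counted reads. Levels are given as CPM, the counts scaled by edgeR's TMM method to a common library size, and changes were tested with the quasi-likelihood method of edgeR, with Benjamini-Hochberg adjustment over all genes. Gab2, the targeted gene, had 74.7 ± 17.0 CPM in the AML WT mice (mean ± SD, n = 3), 53.3 ± 3.57 in the AML HET mice (n = 2) and 40.8 ± 6.15 in the AML KO mice (n = 3). It was lower in AML KO than in AML WT BM by a log2 fold change of −0.87 (edgeR adjusted p = 0.0420). The Gab2 knockout allele replaces only part of the exons with a cassette, so that reads from the remaining exons may still be counted.

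A circulating red cell has no nucleus and survives by being able to deform. Its bilayer is carried by a hexagonal net of spectrin, whose beta chain is encoded by Sptb and which is tied to the membrane at 2 kinds of junction. At the ankyrin junction, ankyrin 1 (Ank1) links beta spectrin to band 3 (Slc4a1), the chloride/bicarbonate exchanger that is the most abundant integral protein of the cell, with protein 4.2 (Epb42) and the Rh proteins (Rhd and Rhag) bound nearby. At the actin junction, protein 4.1 (Epb41) strengthens the contact of spectrin with short actin filaments and holds on to glycophorin C (Gypc). Kel is the Kell blood group metalloprotease, which is linked to the transporter-like protein Xk, and Ermap is an erythroid surface protein of the butyrophilin family that carries the Scianna blood group in humans. In humans, inherited defects of these anchor and spectrin genes cause spherocytosis, and defects of spectrin and protein 4.1 also cause elliptocytosis. These genes are transcribed while the erythroblast is maturing in the marrow, where GATA1 and KLF1 are the best known activators.

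GATA1 binds the letters AGATAA and TGATAA, among others. The 300 bases around the start site (250 before and 50 after) were searched for these strings. Both strands were searched, in RefSeq sequence of build GRCm38.p6. Other letters bound by GATA1 were not searched. Windows were found for 6 of the 8 genes, and Slc4a1 and Ank1 had none. At least 1 match lay in the windows of Epb42, Kel, Ermap and Rhd, and no match in that of Sptb or in any of the 3 windows of Epb41. Of all 32851 promoter windows of the same length, 18.6% held AGATAA or TGATAA. The window of Kel is shown because it holds both letter strings, in the forward direction and close together, with matches in capitals.

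Kel, chr6:41704276-41704575, minus strand: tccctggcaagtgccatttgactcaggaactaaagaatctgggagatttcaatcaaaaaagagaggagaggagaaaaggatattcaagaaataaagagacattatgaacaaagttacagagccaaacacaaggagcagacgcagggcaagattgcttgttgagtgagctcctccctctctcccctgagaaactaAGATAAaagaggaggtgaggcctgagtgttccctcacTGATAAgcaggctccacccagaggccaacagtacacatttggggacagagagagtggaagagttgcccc

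The first match in Kel began 56 bases and the second 19 bases before the start site. The windows of Rhd and Ermap hold 1 match each. In Rhd it began 43 bases before the start, and in Ermap 67 bases before the start on the opposite strand, so that it reads as TTATCA on the strand printed.

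Rhd, chr4:134864286-134864585, plus strand: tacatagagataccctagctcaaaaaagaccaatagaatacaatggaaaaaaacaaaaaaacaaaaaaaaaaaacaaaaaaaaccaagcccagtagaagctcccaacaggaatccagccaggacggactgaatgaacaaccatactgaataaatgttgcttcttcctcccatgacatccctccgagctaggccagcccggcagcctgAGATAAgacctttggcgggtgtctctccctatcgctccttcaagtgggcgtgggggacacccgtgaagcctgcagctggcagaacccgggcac

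Ermap, chr4:119189946-119190245, minus strand: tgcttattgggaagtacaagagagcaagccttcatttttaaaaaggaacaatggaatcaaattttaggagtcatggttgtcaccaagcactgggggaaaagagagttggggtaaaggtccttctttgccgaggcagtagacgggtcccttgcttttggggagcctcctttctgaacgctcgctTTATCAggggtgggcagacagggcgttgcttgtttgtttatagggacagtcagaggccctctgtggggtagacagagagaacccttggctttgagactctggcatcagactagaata

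The most upstream window of Epb41, the gene that behaved unlike the other 7 below, has a GC content of 65.3% and no match. Its other 2 windows are at 48% and 74%, Kel is at 47%, Rhd at 48.3% and Ermap at 48.7%, and the median over all windows is 52.7%.

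Epb41, chr4:132075264-132075563, minus strand: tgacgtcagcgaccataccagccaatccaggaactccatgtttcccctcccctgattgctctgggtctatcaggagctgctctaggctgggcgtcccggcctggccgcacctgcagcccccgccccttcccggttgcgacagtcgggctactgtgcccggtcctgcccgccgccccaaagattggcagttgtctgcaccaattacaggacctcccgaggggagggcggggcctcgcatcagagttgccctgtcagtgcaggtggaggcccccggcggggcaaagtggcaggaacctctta

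High GC was not particular to Epb41, since the window of Sptb, which rose with the other genes, has 65.7% and no match either. A match of letters is a description of the sequence and no measurement of binding. A window without a match may still hold other letters that GATA1 binds.

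In BM without Gab2, 7 of the 8 genes rose strongly, and Epb41 did not pass the test. Slc4a1, Sptb, Ank1, Epb42, Kel, Ermap and Rhd were 7.0-fold (Ank1) to 15.1-fold (Epb42) higher in AML KO than in AML WT BM. Of all genes, 1.77% were called higher and 0.323% lower in the same comparison. All 7 also had an unadjusted p under 0.05, as had 17.7% of all genes. In each of the 7, every AML KO mouse was above every AML WT mouse, as in 12.3% of all genes. The median log2 fold change of the 8 genes was 3.77, compared to −0.02 over all genes. Since whole BM was sequenced, fewer cells of a type and less RNA per cell cannot be told apart in any of these values.

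The anchor of the membrane, Slc4a1 (chr11:102348824-102366203), was the highest of the 7 in every group, also per exon length. It was at 4.77, 9.77 and 10.5 CPM in the AML WT mice, at 27.0 and 108.5 in the AML HET mice and at 186, 83.9 and 97.6 in the AML KO mice. Every AML KO mouse was thus above every AML WT mouse, AML HET replicate 1 lay between the groups and AML HET replicate 2 within the AML KO range. The log2 fold change of AML KO versus AML WT was 3.88 for Slc4a1 (standard error 0.56, 95% confidence interval 2.64 to 5.13, edgeR adjusted p = 0.0102). Epb42 (chr2:121017891-121037072), whose protein is a transglutaminase relative without enzyme activity that binds band 3, was at 0.369, 0.632 and 1.22 CPM in AML WT, 3.33 and 13.1 in AML HET and 17.4, 8.37 and 7.60 in AML KO BM. AML KO and AML WT mice did not overlap, and both AML HET mice were above all AML WT mice. The log2 fold change of Epb42 was 3.92 (standard error 0.63, edgeR adjusted p = 0.0156), the largest of the 8, from as few as 15 counts in an AML WT mouse.

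The genes of the spectrin net changed with smaller folds. Sptb (chr12:76580488-76710547) was at 3.74, 4.43 and 3.74 CPM in AML WT, 8.94 and 34.5 in AML HET and 41.5, 22.6 and 25.4 in AML KO BM. The AML WT mice lay close together, whereas the AML HET and AML KO mice spread widely without reaching the AML WT range. For Sptb the log2 fold change of AML KO versus AML WT was 2.91 (standard error 0.45, edgeR adjusted p = 0.0140). Ank1 (chr8:22974844-23150497), which couples the net to band 3, was at 1.99, 2.40 and 2.20 CPM in AML WT, 3.82 and 16.4 in AML HET and 22.0, 11.0 and 13.1 in AML KO BM. The groups AML WT and AML KO again did not overlap. Its log2 fold change was 2.81 (standard error 0.49, edgeR adjusted p = 0.0207). Ank1 shares 862 exonic bases with an antisense gene, Gm15816, that is not in the table. Whether the counting used strand is not given in the sources used here, and reads of this stretch cannot be assigned to one of the partners.

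Among the surface proteins that carry blood groups, Rhd (chr4:134864536-134896172), a member of the Rh family of ammonium transporters and their relatives, was at 0.688, 1.14 and 1.35 CPM in AML WT, 3.19 and 14.7 in AML HET and 27.6, 8.55 and 10.8 in AML KO BM. Its log2 fold change was 3.89 (standard error 0.66, edgeR adjusted p = 0.0173). Kel (chr6:41686330-41704339) was at 0.443, 0.759 and 1.44 CPM in AML WT, 2.80 and 12.7 in AML HET and 24.1, 5.02 and 9.19 in AML KO BM. AML KO replicate 1 was the highest mouse, and AML HET replicate 2 exceeded AML KO replicates 2 and 3. The log2 fold change of Kel was 3.87 (standard error 0.76, edgeR adjusted p = 0.0341). Ermap (chr4:119175457-119190011) was at 0.639, 1.74 and 2.23 CPM in AML WT, 5.47 and 23.4 in AML HET and 33.2, 8.81 and 16.5 in AML KO BM. The pattern over the mice was the same as in Kel, with no overlap between AML WT and AML KO. For Ermap the log2 fold change was 3.68 (standard error 0.69, edgeR adjusted p = 0.0280). For each of the 7 genes, an exact two-sided permutation test over 3 against 3 mice gave p = 0.1, the smallest p that this design allows.

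**Figure D1:**
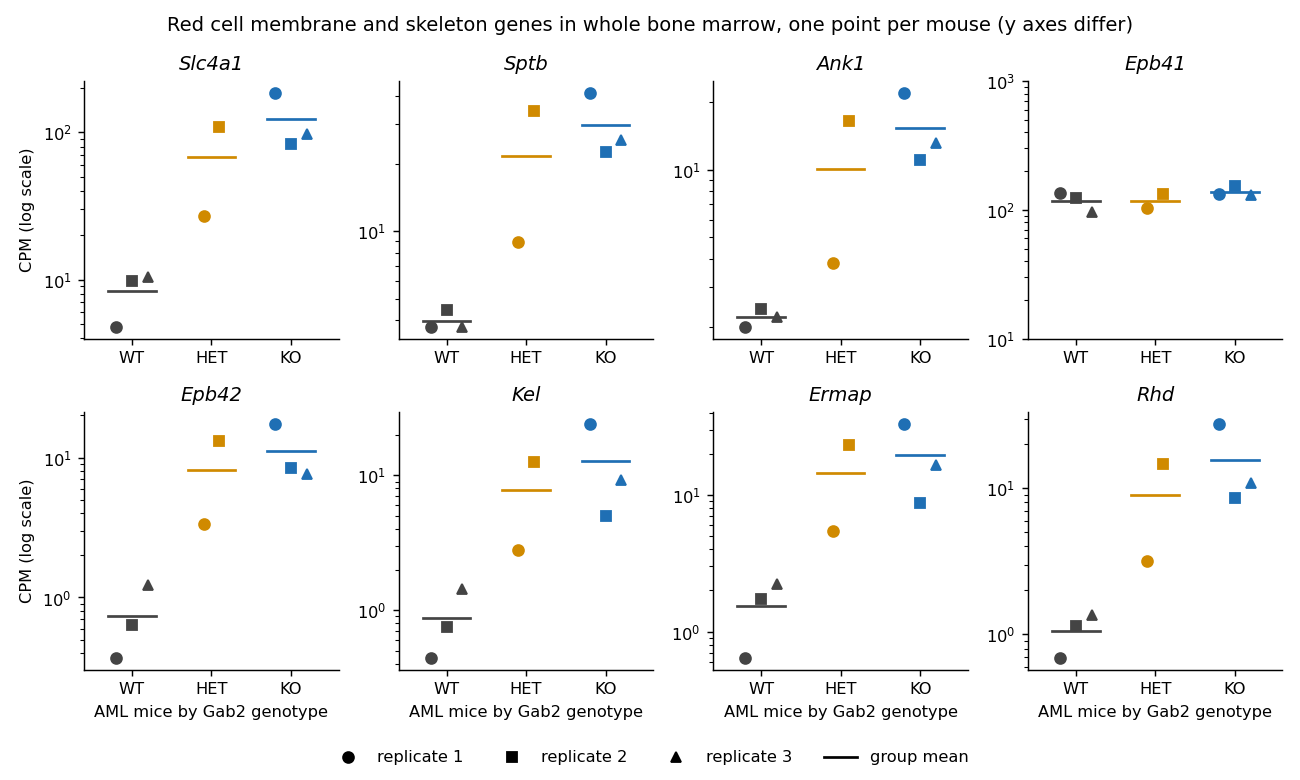
CPM of each of the 8 genes on a log axis, with 1 point per mouse, replicates marked by symbol and group means as lines. In 7 panels the AML KO mice lie above all AML WT mice and AML HET replicate 2 lies within the AML KO range. Of all genes, 12.3% show the former. AML HET replicate 2 is above all AML WT mice and within the AML KO range in 14.7% of all genes. In the panel of Epb41 the groups overlap, and all 8 mice lie between 96.3 and 152.2 CPM.

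Epb41 (chr4:131923413-132075321) was the exception. It was at 134.9, 123 and 96.3 CPM in AML WT, 103.5 and 132.8 in AML HET and 133.8, 152.2 and 130.2 in AML KO BM. All 3 groups overlapped, and the highest mouse was 1.58-fold above the lowest, compared to 11.1-fold (Ank1) to 54.5-fold (Kel) for the other 7 genes. For Epb41 the log2 fold change of AML KO versus AML WT was 0.23 (standard error 0.16, 95% confidence interval −0.12 to 0.58, edgeR adjusted p = 0.426), and the upper end of the interval lies below the lower end for each of the other 7 genes. Unlike those, Epb41 is transcribed in most tissues, and counts per gene do not separate its erythroid splice forms from the others.

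Per length of exons, the order of the levels differed between the genotypes. In AML WT BM, Epb41 was highest with 7.41 ± 1.24 CPM per kb (SD, n = 3), followed by Slc4a1 with 1.70 ± 0.636, Rhd with 0.664 ± 0.211 and Sptb with 0.326 ± 0.0328, and each of the first 3 was above the next without overlap between mice. Kel, Ermap, Ank1 and Epb42 followed, and from Sptb downwards neighbours in this order overlapped. In AML KO BM, Slc4a1 was highest with 25.1 ± 11.3 CPM per kb (SD, n = 3), followed by Rhd with 9.82 ± 6.52, Epb41 with 8.70 ± 0.739, Kel with 4.61 ± 3.62 and Ermap with 3.68 ± 2.35, and Ank1 was lowest with 1.14 ± 0.432. Here, the ranges of all neighbours overlapped, since the SD of most genes was large against the mean.

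With 1 Gab2 allele left, none of the 8 genes passed the test against AML WT, although 7 differed by a wide margin. Across the table, 0.0225% of genes were called between AML HET and AML WT. The log2 fold changes of the 7 genes lay between 2.20 (Ank1) and 3.48 (Epb42) with edgeR adjusted p between 0.430 and 0.629, and their unadjusted p was under 0.05, as for 2.47% of all genes. For 7 of the 8 genes both AML HET mice were above all AML WT mice, a pattern shown by 9.53% of all genes. For Epb41 the log2 fold change was 0.00 (95% confidence interval −0.39 to 0.39). The median over the 8 genes was 3.06 and that of all genes −0.01. Between AML KO and AML HET, 0 of the 8 genes and 0% of all genes passed in edgeR's test, and none of the 8 had an unadjusted p under 0.05, compared to 5.86% of all genes. In 0 of the 8 genes were all AML KO mice above both AML HET mice, a pattern seen in 13.2% of all genes. Log2 fold changes here ranged from 0.23 (Epb41) to 0.85 (Slc4a1, 95% confidence interval −0.40 to 2.11, adjusted p = 0.869), with a median of 0.53. Both comparisons use the same AML HET mice, and they share AML WT or AML KO mice with the comparison above.

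The 2 AML HET mice lay far apart, and their order was the same in all 8 genes, with replicate 2 above replicate 1. AML HET replicate 1 lay above every AML WT and below every AML KO mouse in 7 of the 8 genes, compared to 3.37% of all genes. In the same 7 genes, AML HET replicate 2 was within the range of the AML KO mice, compared to 14.7% of all genes. Slc4a1, for example, was at 770 reads in the former and 3406 in the latter. The mean of the AML HET mice, set on a log2 scale between AML WT (0) and AML KO (1), was 0.780 (Slc4a1) to 0.888 (Epb42) for the 7 genes. With all mice, DESeq2 in place of edgeR called 5 of the 8 against AML WT (Slc4a1, Sptb, Ank1, Epb42 and Rhd). The share of all genes that DESeq2 called in this comparison is not given here. Between AML KO and AML WT, DESeq2 called 730 genes where edgeR called 278. Fits that leave 1 AML HET mouse are given as effect sizes only. Without AML HET replicate 1, the log2 fold change of Sptb against AML WT was 3.12. Without AML HET replicate 2, that of Slc4a1 was 1.70 instead of 3.03 and that of Sptb 1.17 instead of 2.46. Between AML KO and AML HET, the log2 fold change of Slc4a1 was 2.18 without AML HET replicate 2 and 0.18 without replicate 1.

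**Figure D2:**
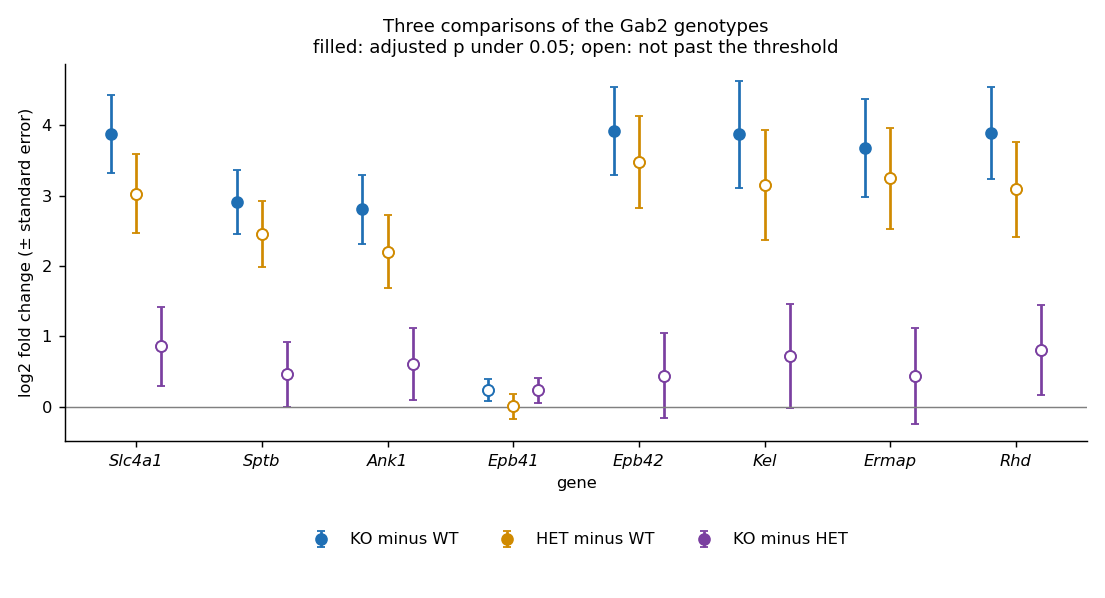
Log2 fold changes with standard errors of the 8 genes in the comparisons AML KO against AML WT, AML HET against AML WT and AML KO against AML HET. Filled points had an adjusted p under 0.05 and open points did not; 7 genes are filled for AML KO against AML WT, and every AML HET value is open, including those between 2.20 and 3.48.

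The 7 genes moved together from mouse to mouse as well as between genotypes. AML KO replicate 1 was the highest of all 8 mice for each of them, and for 6 genes the order within AML KO was replicate 1, replicate 3, replicate 2. AML WT replicate 1 was the lowest mouse for 6 of the 8 genes. Over the 8 mice, the correlation (Pearson) of log2 CPM of each gene with the mean of the 8 genes ranged from 0.988 to 0.999 for the 7 genes and was 0.429 for Epb41. With the group means subtracted, the 7 genes were still at 0.927 (Sptb) to 0.996 (Rhd) and Epb41 at 0.079. These values describe points that share libraries and include the gene itself in the mean. Outside the 8 genes, those most like the mean included Rhag (0.998, and 0.986 with group means subtracted), Cldn13 (0.994 and 0.966), Tspo2 (0.993 and 0.973), Mylk3 (0.993 and 0.953) and Dmtn (0.992 and 0.957). Thus, the direct partner of Rhd came first. Cldn13 is a claudin of rodent erythroid cells, Tspo2 a cholesterol-binding relative of the translocator protein and Mylk3 a myosin light chain kinase known from heart muscle. Mylk3 was at 0.295 to 0.429 CPM in AML WT mice and 2.07 to 5.85 CPM in AML KO mice and had a log2 fold change of 3.31 (edgeR adjusted p = 0.0174).

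The known binding partners of the 7 genes changed unequally. Of 38 other genes of the red cell membrane and its skeleton, 37 were in the table, of which 4 were called higher and 0 lower between AML KO and AML WT. Their median log2 fold change was 0.29. In 20 of the 37 the AML KO mice were all above the AML WT mice, compared to 12.3% of all genes. Within the skeleton, 2 of 10 were called higher, and 3 had an unadjusted p under 0.05 in edgeR's test. In 6 of the 10 all AML KO mice were above all AML WT mice. Add2 and Dmtn, encoding beta adducin and dematin at the actin junction, had log2 fold changes of 3.70 (edgeR adjusted p = 0.0237) and 3.72 (adjusted p = 0.0214). Tmod1, which caps the slow-growing filament end, was chosen after its values were seen and missed the threshold (2.35, adjusted p = 0.0568). Add3, which other blood cells use as well, had the lowest value of the list (−0.19, adjusted p = 0.518).

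Among 5 partners in membrane complexes, 1 was called higher, and 3 had an unadjusted p under 0.05 in edgeR's test. In 4 of the 5 all AML KO mice were above all AML WT mice, compared to 12.3% of all genes. Rhag, the ammonium channel of the Rh complex, was at 0.344 to 0.980 CPM in AML WT mice and 5.60 to 16.8 CPM in AML KO mice (log2 fold change 3.91, edgeR adjusted p = 0.0163). Xk, Gypc and Icam4 did not pass, with log2 fold changes of 0.44 (adjusted p = 0.285), 0.41 (adjusted p = 0.189) and 1.57 (adjusted p = 0.175). In each of them, however, all AML KO mice were above all AML WT mice. Cd47, a marker of self on most blood cells, was at −0.18 (adjusted p = 0.494), and its groups overlapped. Among other surface proteins, 1 of 11 was called higher, the water channel Aqp1 (2.78, adjusted p = 0.0210). Bcam had the lowest value (−0.57, adjusted p = 0.514). In 9 of the 11 all AML KO mice were above all AML WT mice, compared to 12.3% of all genes. In edgeR's test 8 of the 11 had an unadjusted p under 0.05, compared to 17.7% of all genes. Their median log2 fold change was 0.71. None of 11 transporters and ion channels passed in edgeR's test, 2 of them had an unadjusted p under 0.05, and the lowest value was that of the mechanosensitive channel Piezo1 (−0.72, adjusted p = 0.307). With DESeq2 in place of edgeR, 11 of the 37 genes passed, all with higher levels in AML KO BM, among them Icam4 (adjusted p = 0.0375) and Tmod1 (adjusted p = 0.00173). In edgeR's test, 0 of the 37 passed without AML WT replicate 1 or replicate 2, 2 (Rhag and Aqp1) without AML KO replicate 1 and 1 (Add2) without AML KO replicate 3.

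Whether 2 partners kept their proportion was asked with the log2 ratio of their CPM in each mouse, which does not depend on library size. With 3 against 3 mice, no exact two-sided permutation test can give a p below 0.1, and none of the 6 pairs passed (adjusted p 0.2 to 0.7). The ratio of Epb42 to Slc4a1 was −3.58 ± 0.438 (SD, n = 3) in AML WT mice and −3.48 ± 0.185 (SD, n = 3) in AML KO mice. For Rhd to Rhag the ratio was 0.70 ± 0.275 and 0.57 ± 0.165. In these 2 pairs, the groups overlapped while both genes rose 14.7-fold or more. The ratio of Ank1 to Sptb was −0.85 ± 0.0785 in AML WT mice and −0.97 ± 0.0642 in AML KO mice, a difference of −0.12 with no overlap between the groups.

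In 2 pairs of surface genes edgeR called only 1 partner, and their ratios differed most. The ratio of Kel to Xk was −3.02 ± 1.05 and 0.25 ± 1.11, and that of Ermap to Icam4 −0.08 ± 0.623 and 2.12 ± 0.303, both without overlap (exact permutation test, p = 0.1, adjusted p = 0.2). The remaining pair, Epb41 to Gypc at the actin junction, was at 1.15 ± 0.208 and 0.98 ± 0.208, and its groups overlapped.

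The red cell genes have relatives of the same gene families that other cells use. Of 34 such relatives, 17 were in the table, of which none was called between AML KO and AML WT by edgeR (4 had an unadjusted p under 0.05, and DESeq2 called 1, Epb41l4b, with a log2 fold change of 0.47 and adjusted p = 0.0113). Their median was −0.06. Sptbn1 and Sptan1, the spectrins of most cells, had log2 fold changes of −0.38 (edgeR adjusted p = 0.450) and −0.40 (adjusted p = 0.365). Ank2 was at −0.32 (adjusted p = 0.640), Epb41l1 at −0.06, Epb41l2 at −0.39 and Epb41l3 at −0.10 (adjusted p 0.273 to 0.898). Of the bicarbonate transporters, Slc4a2 was at 0.07 (adjusted p = 0.756) and Slc4a7 at −0.62 (adjusted p = 0.271).

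Per exon length, the AML WT marrow held mainly the general spectrins, with Sptbn1 at 14.8 CPM per kb and Sptan1 at 18.5, while Sptb was at 0.326. The share of Sptb in the beta spectrins of the table was 2.30 ± 0.706% in the AML WT mice (SD, n = 3), 12.6 ± 9.63% in the AML HET mice (n = 2) and 19.0 ± 10.2% in the AML KO mice (n = 3). Of the level of 4 SLC4 transporter genes, Slc4a1 held 14.7 ± 5.69%, 54.5 ± 23.8% and 72.0 ± 8.47% in the same order. Ank1 already held 84.9 ± 3.41% of the ankyrin level in AML WT mice and 97.7 ± 1.30% in AML KO mice, and Ank2, at a low level, was the only other ankyrin in the table. Even Epb41 had a share of 61.2 ± 2.22% of its 4-gene family in AML KO, compared to 50.9 ± 1.08% in AML WT BM, without overlap. Add2 stayed a small part of the adducins with 0.0628 ± 0.0288% and 0.894 ± 0.692%. These families were defined after the values were seen, and the shares were not tested.

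**Figure D3:**
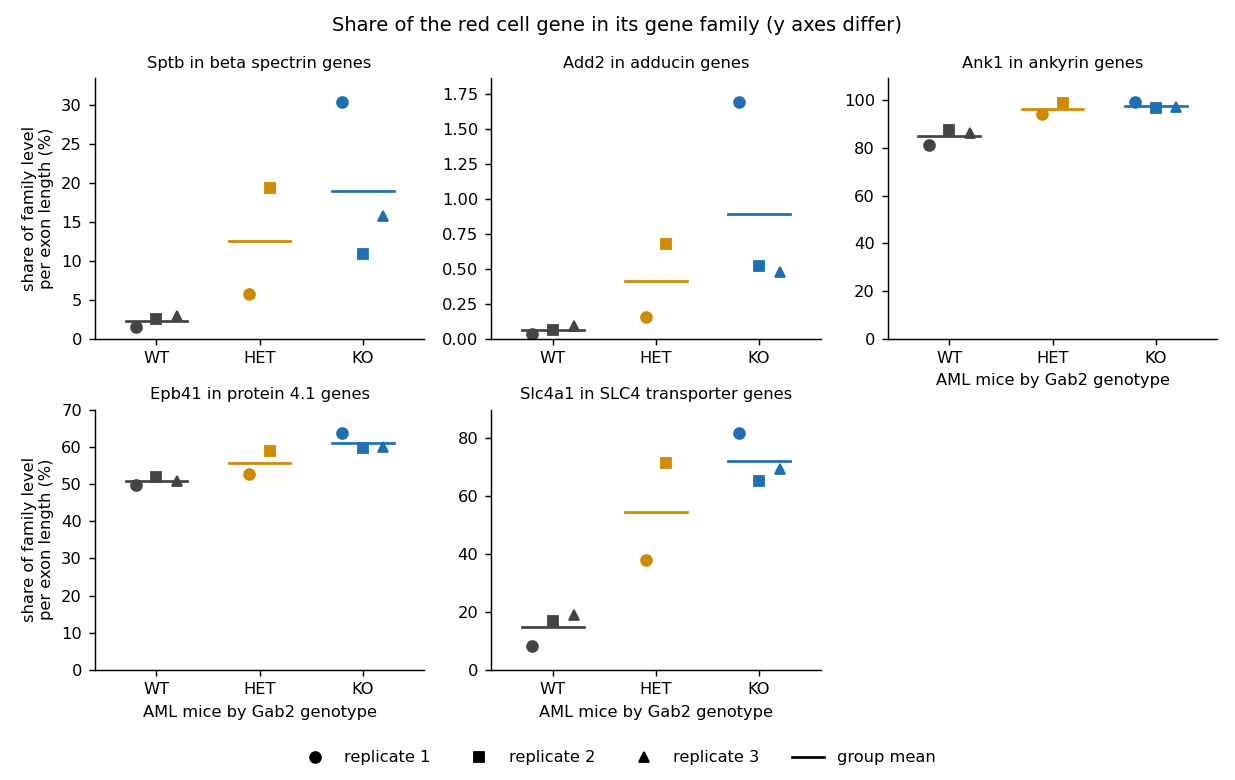
Share of the red cell gene in the summed CPM per kb of its family, in percent, for 5 families with 1 point per mouse and group means as lines (y axes differ). In each panel the 3 AML KO mice lie above the 3 AML WT mice, with means of 2.30% and 19.0% for Sptb and of 14.7% and 72.0% for Slc4a1. The family of Epb41 leaves out Epb41l4b, whose level per kb was near that of Epb41.

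Markers of marrow cells, all of them detected, were followed in the same comparison. Several lists held calls, and their part in the changes above was not tested. Of 12 globin and haem synthesis genes, Hbb-bs, Alas2 and the near-identical Hba-a1 and Hba-a2 were called higher in AML KO than in AML WT BM, and the summed level of the list was 451 to 569 CPM in AML WT, 764 and 2255 in AML HET and 1625 to 5378 in AML KO BM. Of 6 erythroid transcription factors, 5 were called higher (235 to 294, 325 and 371, and 363 to 502 CPM), among them Gata1 with a log2 fold change of 3.54 and Klf1 with 3.48. All 8 megakaryocyte markers were called higher, with 33.6 to 36.5 CPM in AML WT, 54.9 and 87.9 in AML HET and 217 to 328 in AML KO BM, as were 4 of 7 neutrophil markers (Ngp, Ltf, Camp and S100a9; 1120 to 4366, 5097 and 5706, and 9770 to 16218 CPM). In the latter 2 lists the AML HET mice lay below every AML KO mouse. The 7 membrane genes and the summed globin and erythroid factor lists had AML HET replicate 2 within the AML KO range. By list median, AML HET replicate 2 of the erythroid factors (1.11) lay just below the lowest AML KO mouse (1.14). None of 6 monocyte markers passed in edgeR's test (3770 to 4367, 3546 and 3894, and 2752 to 3705 CPM), and 2 had an unadjusted p under 0.05. Of 8 macrophage markers, Vcam1 and Cd5l were higher and Mrc1 lower (324 to 397, 254 and 287, and 196 to 309 CPM), and of 6 stem and progenitor markers Cd34 was higher (403 to 449, 416 and 478, and 521 to 600 CPM). B cell markers (425 to 603 CPM in AML WT, 479 to 549 in AML KO BM), T and NK cell markers (84.7 to 104 and 96.2 to 124) and stroma and endothelium markers (399 to 720 and 236 to 445) had no call in edgeR's test among 5 genes each, with 0, 1 and 1 at an unadjusted p under 0.05.

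**Figure D4:**
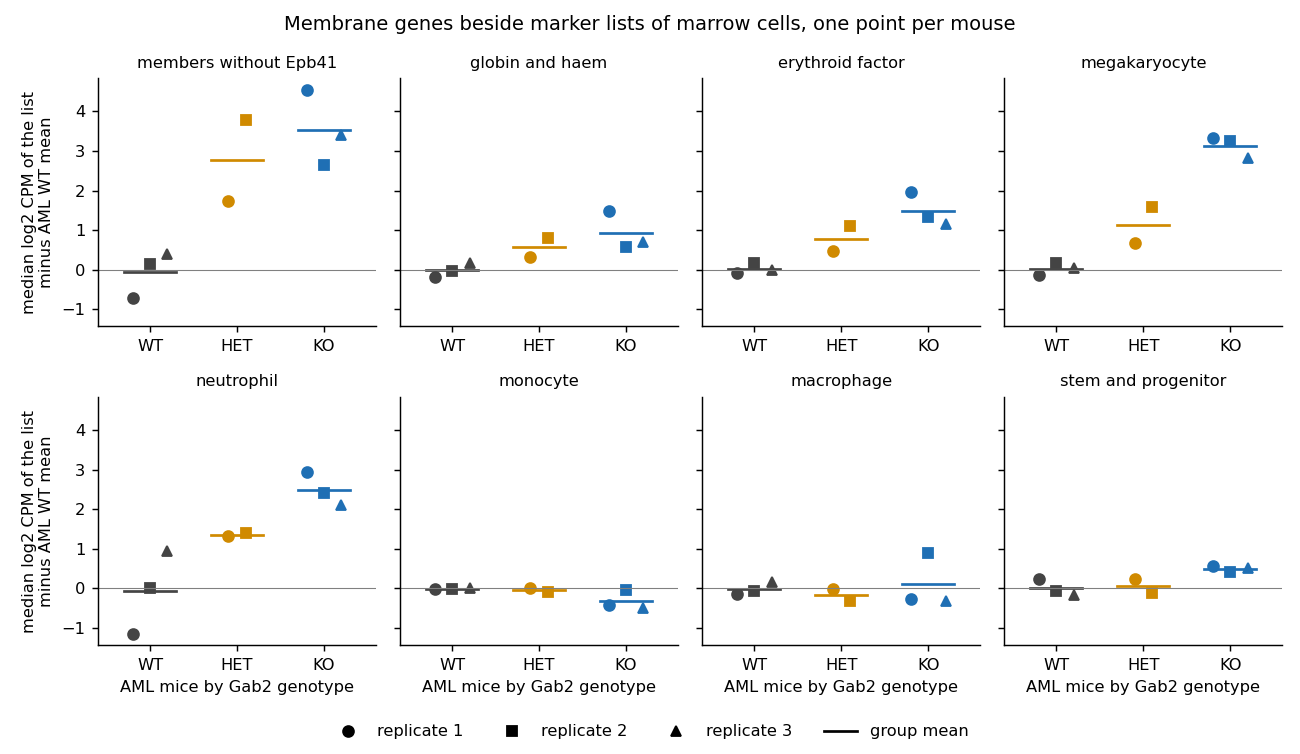
Median log2 CPM of each list in each mouse, relative to the mean of the AML WT mice, for the 7 membrane genes without Epb41 and 7 marker lists, with group means as lines. The membrane genes reach 2.64 to 4.55 in AML KO mice and 1.75 and 3.77 in AML HET mice, while the monocyte list stays between −0.49 and 0.02 in all 8 mice.

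How far the calls rest on single mice was examined by leaving out each mouse in turn. The log2 fold changes of the 7 genes between AML KO and AML WT remained between 2.46 (Ank1) and 4.48 (Epb42), and the highest unadjusted p in any of these fits was 0.00464 (Kel, edgeR). The adjusted p depends on all genes of the table, of which 278 were called with all 8 mice. The number of calls among the 8 genes fell to 0 without AML WT replicate 2, where 40 genes in all were called. It fell to 1 (Slc4a1) without AML WT replicate 1, where 167 genes in all were called. It fell to 3 (Sptb, Epb42 and Rhd) without AML KO replicate 1 (137 in all). It fell to 4 (Slc4a1, Sptb, Epb42 and Rhd) without AML KO replicate 3 (123 in all). It was 7 without each of the other 4 mice. The highest adjusted p of the 7 genes ranged from 0.0675 for Slc4a1 to 0.150 for Kel, both without AML WT replicate 2.

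**Figure D5:**
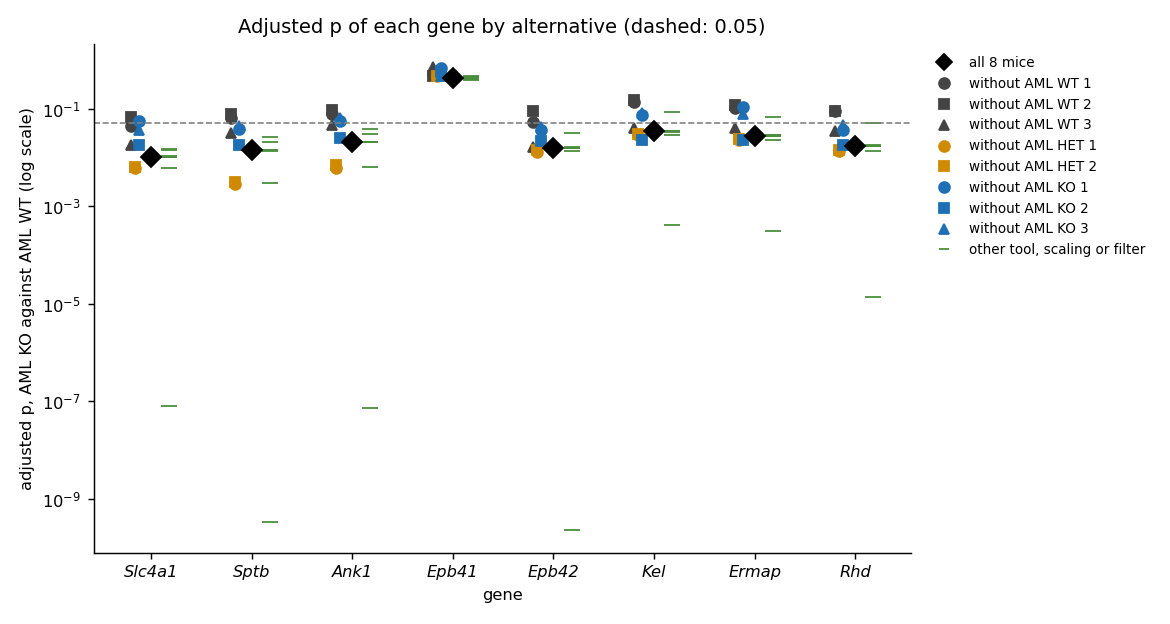
Adjusted p between AML KO and AML WT for each gene on a log axis, with all 8 mice (diamonds), without 1 mouse (coloured by the genotype left out) and with another tool, scaling or filter (dashes). The 7 genes lie below the dashed line at 0.05 with all mice and cross it without single AML WT or AML KO mice, up to 0.150 for Kel. Kel and Ermap also cross it with limma-voom, while Epb41 lies above it throughout. The edgeR fit with the replicate number as a block is not drawn. Its adjusted p ranged from 0.0817 (Slc4a1) to 0.178 (Kel) for the 7 genes.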

How the data were processed

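The authors extracted total RNA from whole BM of 8 mice, sequenced it on an Illumina HiSeq4000 and deposited raw counts per gene without normalization. Trimmomatic 0.36, STAR 2.5.2b and the mm10 build are named in the submitters' processing notes, while the counter, its strand setting and the annotation are not given in the sources used here. Ensembl identifiers were matched to GENCODE M21 (13266 of 13305), and no gene had fewer than 106 counts in all.

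Counts were scaled with TMM and fitted for all 8 mice with genotype as the only term in edgeR 4.0.16 (R 4.3.3, robust quasi-likelihood test), and p was adjusted over all genes with a threshold of 0.05. filterByExpr removed no gene. In simulated counts for AML KO against AML WT over 13305 genes, the test found 91 of 100 genes changed 4-fold and 61 of 100 changed 2-fold, and called 10 unchanged genes. Levels between genes use the union of exons. The alternatives included DESeq2 1.42.0 and limma-voom 3.58.1. Genes named are the 8 genes, Gab2, partners of 6 pairs, list genes past the threshold or lowest in their list, close relatives and 5 genes most like the mean. Some genes are not reported here, and lists, pairs and families leave them out. Outside this rule stand Epb41l4b, Tmod1, Mmel1 and the marker genes, picked once values were known. The 8 genes and the lists were chosen with earlier results of these data known. The labels do not say whether mice shared a litter or batch, and no batch is given.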

Additional observations from a re-analysis of the deposited data

How the results depend on the processing

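RLE and upper-quartile scaling, no filter on low counts, a fit of only the 2 groups compared and a fit without the 10 most counted genes each gave the same 7 calls between AML KO and AML WT. limma-voom lost Kel (adjusted p = 0.0872) and Ermap (0.0665). Requiring 50 counts in every mouse dropped 4 of the 8 genes, which are low in AML WT, and called 3 of the rest, with 1 call among the other membrane genes. Without single mice, 0 to 7 of the 8 genes, 0 to 5 of the other membrane genes and 0 to 1 of the relatives were called between AML KO and AML WT. The 1 relative was Mmel1, without AML WT replicate 1. DESeq2 called 11 other membrane genes, 1 relative and, between AML HET and AML WT, 5 of the 8 genes. Over all genes, 278 calls became 730 with DESeq2, 151 with the 50-count filter and 40 (without AML WT replicate 2) to 370 (without AML KO replicate 2). Gab2 itself passed in 2 of the 8 fits without 1 mouse and reached an adjusted p of 0.159.

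The labels do not say whether equal replicate numbers pair mice. Deviations of same-numbered AML WT and AML KO mice correlated at −0.51, −0.11 and −0.13. Those of the same-numbered pairs with AML HET correlated at 0.076 and 0.29 (AML WT) and −0.14 and −0.040 (AML KO). Deviations from the mean of so few mice are tied to each other, so these values cannot decide whether mice were paired. With the number as a replicate block, 0 of the 8 genes and 0 other membrane genes were called, among 19 genes in all, and Epb41 was at −0.090 between AML HET and AML WT.

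Some small differences turned sign without 1 mouse. Between AML KO and AML HET, log2 fold changes ranged from −0.21 to 1.74 (Sptb), −0.091 to 2.01 (Ank1), −0.23 to 1.74 (Epb42), −0.11 to 2.19 (Kel) and −0.26 to 1.83 (Ermap). Epb41 ranged from −0.19 to 0.17 for AML HET versus AML WT. For AML KO versus AML WT, Epb41l1 ranged from −0.14 to 0.050, Epb41l3 from −0.40 to 0.040, the ratio of Epb42 to Slc4a1 from −0.081 to 0.35 and that of Rhd to Rhag from −0.25 to 0.018. The cause was not tested. In the case of Sptb, the AML HET mice were at 8.94 and 34.5 CPM, and AML KO BM had a mean of 29.8. With 15 to 47 counts of Epb42 and Kel per AML WT mouse, counting error adds to the spread of the AML WT mice. These counts do not enter the differences between AML KO and AML HET.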
